A study of Homo sapiens with 4 samples.

Results

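The genes described here are 10 components of cytokine signalling through JAK kinases and STAT factors: the kinase JAK2, the transcription factors STAT3 and STAT5A, the feedback inhibitors SOCS1, SOCS3 and CISH, the survival kinases PIM1, PIM2 and PIM3, and the repressor BCL6. They were taken from the deposited expression table by gene symbol, and all 10 were found among its 27106 genes. The table comes from RNA sequencing of THP-1, an established line from a human acute monocytic leukaemia. Cells were transfected with an antisense oligonucleotide, a short nucleic acid that pairs with a chosen RNA and lowers it. In 2 libraries the oligonucleotide matched no target, and in the other 2 it was aimed at SGOL1-AS1, a long noncoding RNA; all 4 are marked day 5. The labels give 1 cell line and do not say whether the 2 libraries of a group were separate cultures, so the p-values reflect the spread among these samples alone and it may be technical.

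In this pathway a cytokine joins its receptor chains, the JAK kinases bound to them become active, and the STAT factors they phosphorylate move to the nucleus. The STATs switch on genes that include their own brakes: CISH and the SOCS proteins bind the receptors or the JAKs and shorten the signal. PIM kinases are also induced by STATs, need no upstream kinase to be active, and favour survival and growth in blood cells. BCL6 is a repressor that recognises DNA sequences much like those bound by STATs.

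The libraries held 41435922 to 51851314 reads assigned to genes. The columns used as knockdown bear a code absent from the labels and were placed in that group by elimination, and all directions below depend on that placement. The target, now named SGO1-AS1, had 24 and 21 reads without and 12 and 17 with the targeting oligonucleotide. Its normalized counts were 23.0 and 19.8 against 11.5 and 19.4 (limma, log2 fold change -0.48 ± 0.37 SE, adjusted p = 0.555). These reads are too few to check the labels. Of 9 monocyte markers all were measured, with a summed normalized count of 100113 to 106306 in the non-targeting and 97195 to 102652 in the knockdown libraries. The granule enzyme lysozyme (LYZ) stood at 36975 to 40116, while the defining marker CD14 was low, at 94.7 to 110.4. Of the 9 markers 7 had a negative log2 fold change and 1 was called lower. Over all genes tested the shares were 52.5% and 3.40%. The marker called lower was CD4, a surface receptor that monocytes share with helper T cells, named after its values were seen. It went from 6913 and 6908 to 5368 and 5512 (limma, log2 fold change -0.35, adjusted p = 0.000193), and its part in the results below was not tested. Summed T and B lymphocyte markers came to 111 to 114 and 112 to 122, and the T cell genes CD3D and CD3E are not analysed here.

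Among the 10 genes, SOCS3 and PIM3 were lower in the knockdown and none was called higher (limma, adjusted p under 0.05). Over all 19398 genes tested, 3.40% were called lower and 0.851% higher. All 10 were measured well enough to be tested, so none was lost to the filter on low counts. Their log2 fold changes ran from -0.44 for SOCS3 to -0.02 for BCL6, with a median of -0.13 against -0.01 over all genes tested. The sign was negative for all 10 with the authors' scaling (52.5% of all genes tested), but for 7 of them when every library was scaled to the same total and for 9 after quantile normalization. In 5 of the 10 (JAK2, STAT3, STAT5A, SOCS3 and PIM3) both knockdown values lay below both non-targeting values, which was so in 25.1% of all genes tested. By edgeR 2 of the 10 were called lower, against 2.87% of all genes tested, and by DESeq2 1, against 2.91% of the 13004 genes it gave an adjusted p. An unadjusted p under 0.05 by limma was reached by 3 of the 10 and by 17.2% of all genes tested.

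**Figure D1:**
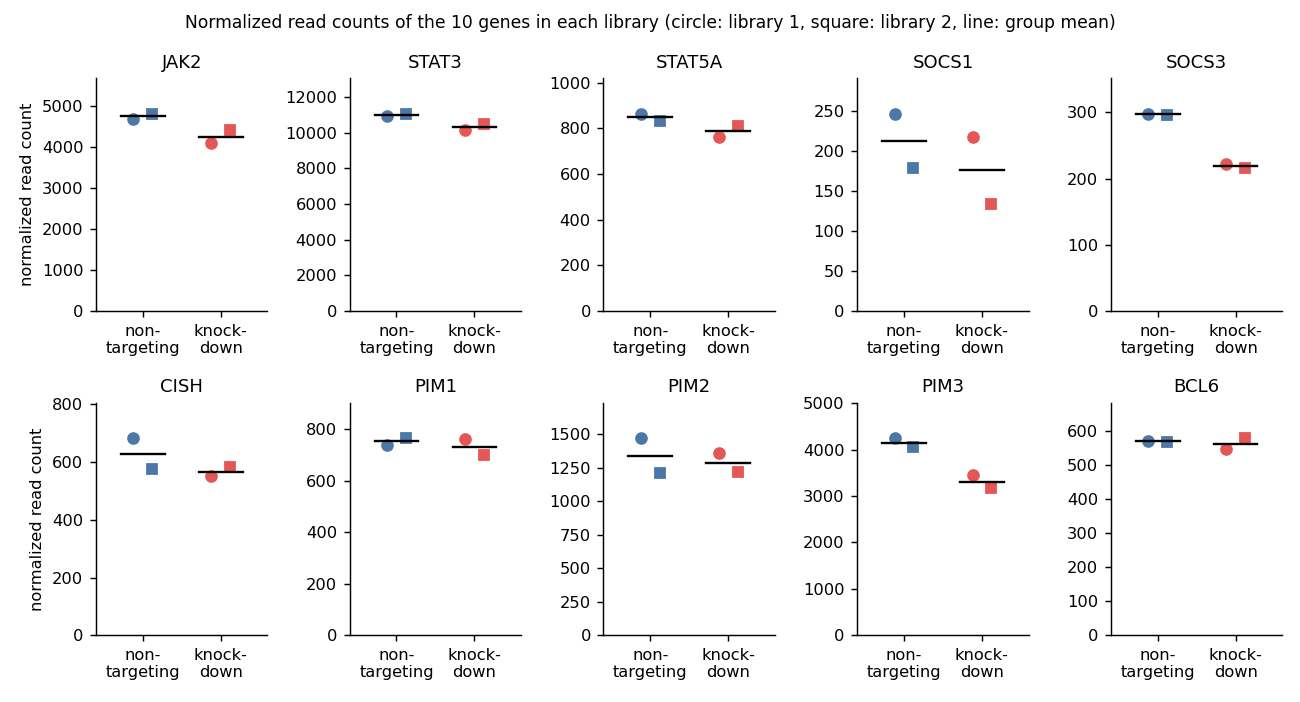
Normalized read counts (vertical axes, from 0) of the 10 genes in the 2 non-targeting (blue) and 2 knockdown (red) libraries, with circles for library 1, squares for library 2 and a line at each group mean. SOCS3 and PIM3 show a gap between the groups that is wide beside the spread within them, whereas SOCS1 varies more between libraries of a group than between groups.

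The kinase at the head of this group, JAK2, serves receptors such as those for erythropoietin, interleukin-3 and GM-CSF. Its gene spans 4984390 to 5128183 of chromosome 9 (GRCh38, plus strand). Normalized counts were 4691 and 4815 in the non-targeting libraries, against 4114 and 4413 in the knockdown. The groups did not overlap, but their difference did not pass the test over all genes: 4753 ± 87.6 against 4263 ± 211 (SD, n = 2; limma, log2 fold change -0.16, 95% interval -0.27 to -0.04, adjusted p = 0.118). Without knockdown library 2 it was called lower (-0.21, adjusted p = 0.0224). With the other 3 libraries left out in turn the value lay between -0.18 and -0.11.

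STAT3, which carries signals of the interleukin-6 family and of interleukin-10, was the most abundant of the 10 in reads. It stood at 10952 and 11054 normalized reads in the non-targeting libraries and at 10141 and 10478 in the knockdown. The knockdown values were both below the non-targeting ones by a small margin, and the difference was not called (limma, log2 fold change -0.09, 95% interval -0.20 to 0.01, adjusted p = 0.334). STAT5A, a mediator of GM-CSF and interleukin-3 signals, was read at 863 and 834 against 761 and 812. Here too the groups were apart without a call (limma, log2 fold change -0.11, 95% interval -0.27 to 0.05, adjusted p = 0.515). For both STATs the intervals do not reach the estimate for SOCS3, -0.44, whose own 95% interval ran from -0.68 to -0.20. No difference between these genes was tested. STAT3 lies on the minus strand of chromosome 17 from 42313324 to 42388568 and STAT5A on its plus strand from 42287547 to 42311943.

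SOCS3, the feedback inhibitor that docks on the interleukin-6 receptor chain gp130 and blocks JAK kinases, was lower in the knockdown. It lies on the minus strand of chromosome 17 from 78356778 to 78360077. Its normalized counts were 297.7 and 296.4 in the non-targeting libraries, from 310 and 315 reads. In the knockdown libraries they were 221.5 and 216.7, from 231 and 190 reads. The libraries of each group lay close together and the groups were far apart. The mean went from 297.0 ± 0.953 to 219.1 ± 3.42 (SD, n = 2), and SOCS3 fell by 26.1% on the log2(value + 1) scale (limma, log2 fold change -0.44 ± 0.12 SE, adjusted p = 0.0300 over all genes).

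The size of the SOCS3 change was steady, from -0.45 to -0.38 over 15 alternatives, while its call was not. The call ended without non-targeting library 1 (adjusted p = 0.200) or library 2 (0.140), and by DESeq2 (0.192). It ended as well after quantile normalization (0.0551), with the same total in every library (0.0848) and with no mean-variance trend (0.306). By edgeR it held (adjusted p = 0.0459). The gap between the 2 non-targeting libraries, 0.0065 on the log2 scale, was far below the counting error of such a pair, 0.12, so reads alone limit this gene more than the observed spread shows.

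SOCS1, an inhibitor that binds JAK kinases directly and restrains interferon signals, could not be resolved at this replication. It lies on the minus strand of chromosome 16 from 11254405 to 11256200. The non-targeting libraries gave normalized counts of 246.8 and 178.8, and the knockdown libraries 217.7 and 134.6. The groups overlapped, and the libraries of a group differed by 0.46 and 0.69 on the log2 scale, against counting errors of 0.14 and 0.16. The difference between groups was not called (limma, log2 fold change -0.29, 95% interval -0.67 to 0.08, adjusted p = 0.429). Single libraries decided it: with knockdown library 1 removed SOCS1 was called lower (-0.64, adjusted p = 0.00423), and it stood at 0.05 without knockdown library 2 and at -0.06 without non-targeting library 1.

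CISH, the first of this inhibitor family to be described and a classical target of STAT5, was read at 683 and 577 in the non-targeting libraries and at 551 and 582 in the knockdown. One non-targeting library was high and the other lay between the knockdown values, so the groups overlapped (limma, log2 fold change -0.15, 95% interval -0.34 to 0.04, adjusted p = 0.445). The value was -0.03 without non-targeting library 1 and -0.27 without library 2. The gene lies on the minus strand of chromosome 3 from 50606490 to 50611831. It shares 218 exonic bases (4.26% of its exons) with MAPKAPK3 on the opposite strand, and whether counting used strand is not given in the labels.

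The STAT motif TTCNNNGAA, which reads the same on both strands, was searched in the 250 bases before each RefSeq gene start (GRCh38.p14). It was found in 6.57% of all 35116 such windows and in 2 of the 17 windows of the 10 genes, some of which have several starts. The CISH window held 4 matches and 1 BCL6 window held 1. The CISH stretch is shown because its matches stand in pairs, at positions -241 and -230 and at -129 and -112 from the RefSeq start. It is chr3:50611839-50612024 on the minus strand, written 5′ to 3′ with the matches in capitals, and beside it stands the BCL6 match at position -28 (chr3:187745478-187745506, minus strand).
CISH: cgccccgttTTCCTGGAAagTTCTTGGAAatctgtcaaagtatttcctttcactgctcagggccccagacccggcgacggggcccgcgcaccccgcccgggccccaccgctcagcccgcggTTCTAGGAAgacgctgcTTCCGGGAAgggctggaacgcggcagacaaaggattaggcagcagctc
BCL6: gaagctcaaaTTCCGAGAAttgagctctg
Neither gene whose promoter window holds these letters passed the test in the knockdown. The windows of SOCS3 and PIM3, which did pass, have no such match. For SOCS3 the GENCODE 29 start, 78360077, lies in neither of its 2 RefSeq windows (78360926 to 78361175 and 78359668 to 78359917), so the sequence before that start was not searched. The same holds for PIM3, whose single window (49960522 to 49960771) lies after its GENCODE 29 start, 49960513. The BCL6 window with the match likewise lies inside the GENCODE 29 gene, which starts at 187745727 on the minus strand.

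PIM3 was lower in the knockdown, and PIM1 and PIM2 were not called. PIM3, a serine/threonine kinase that promotes protein synthesis and survival, spans 49960513 to 49964080 of chromosome 22 (plus strand). The non-targeting libraries gave 4242 and 4057 normalized reads and the knockdown libraries 3441 and 3168, each from at least 2778 reads. All knockdown values were below all non-targeting values, by 0.24 on the log2 scale at the nearest pair. The mean went from 4149 ± 131 to 3305 ± 193 (SD, n = 2), and PIM3 fell by 20.4% (limma, log2 fold change -0.33 ± 0.06 SE, adjusted p = 0.00118). PIM3 was called in 14 of 15 alternatives, with values from -0.39 to -0.27, among them edgeR (adjusted p = 0.00370) and DESeq2 (0.000964). The exception was the fit with no mean-variance trend (adjusted p = 0.343), in which no gene of the table was called, with 2337 at an unadjusted p under 0.05.

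PIM1, the family member best known as a STAT target and as a partner of MYC in lymphoma, spans 37170203 to 37175426 of chromosome 6 (plus strand). It was read at 741 and 766 in the non-targeting libraries, against 763 and 701, and the groups overlapped. Its log2 fold change of -0.04 had a 95% interval of -0.21 to 0.13 (limma, adjusted p = 0.849). That interval does not reach the estimate for PIM3, -0.33, whose own interval ran from -0.45 to -0.21. No difference between PIM1 and PIM3 was tested. PIM2, a kinase abundant in blood cancers, lies on the minus strand of the X chromosome from 48913182 to 48919024. It stood at 1468 and 1211 in the non-targeting libraries, against 1356 and 1213, with overlapping groups (limma, log2 fold change -0.06, 95% interval -0.23 to 0.12, adjusted p = 0.794). The 2 non-targeting libraries differed by 0.28 on the log2 scale in PIM2, against a counting error of 0.055. Its value was 0.08 without non-targeting library 1 and -0.19 without library 2.

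BCL6, a zinc finger repressor that in macrophages limits inflammatory genes, showed the smallest difference of the 10. It lies on the minus strand of chromosome 3 from 187721377 to 187745727. On the opposite strand it shares exonic bases with AC072022.2 (318, 5.36% of its exons) and AC072022.1 (171, 2.88%). As for CISH, the strand setting of counting is not given. Normalized counts of 572 and 569 in the non-targeting libraries compare with 548 and 579 in the knockdown. The knockdown libraries lay on both sides of the non-targeting ones (limma, log2 fold change -0.02, 95% interval -0.20 to 0.16, adjusted p = 0.942).

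**Figure D2:**
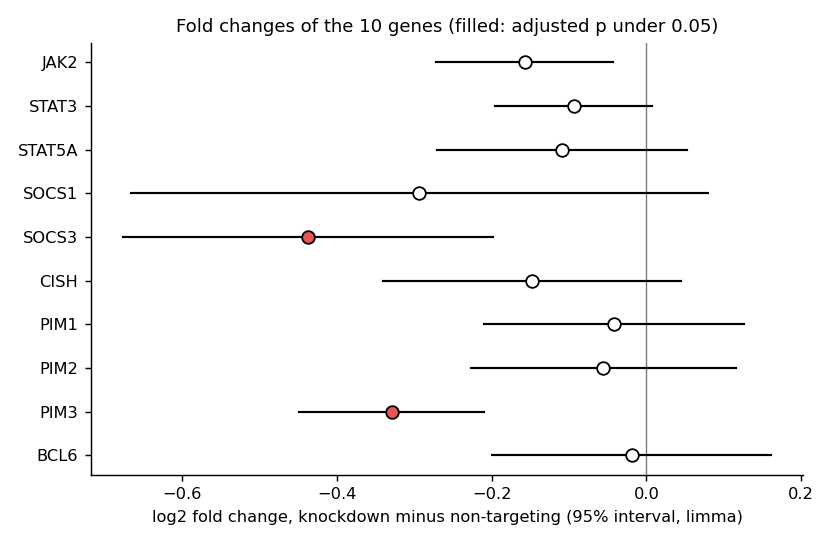
Log2 fold change (knockdown minus non-targeting, horizontal axis) of each gene with its 95% interval from limma; filled points passed an adjusted p under 0.05. SOCS3 at -0.44 and PIM3 at -0.33 are filled, and the widest interval belongs to SOCS1.

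Because normalized counts grow with transcript length, levels were compared between genes as normalized counts per kilobase of annotated exons (GENCODE 29, all isoforms joined). On that scale PIM3 stood highest, from 1287 to 1724 over the 4 libraries. STAT3 followed at 1151 to 1254, JAK2 at 667 to 780, PIM2 at 439 to 532 and PIM1 at 236 to 257, with no overlap between neighbours in this order. STAT5A, CISH, SOCS1, BCL6 and SOCS3 came last, from 74.9 to 150.0. Each of these 5 overlapped its next neighbour among them. In both conditions the 3 feedback inhibitors were thus at the low end, and PIM3 was the most abundant PIM transcript per length.

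Ratios between genes of the same library do not change when each library is scaled by a single factor, though quantile normalization can change them. The pairs were chosen because PIM3 and SOCS3 had been called, so they are a description. The normalized count of PIM3 was 5.72 and 5.30 times that of PIM1 in the non-targeting libraries and 4.51 and 4.52 times in the knockdown libraries. Against PIM2 the ratios were 2.89 and 3.35, then 2.54 and 2.61. Both PIM3 ratios were thus lower in the knockdown, with no overlap. Per kilobase, PIM3 made up 68.8% and 70.3% of the 3 PIM transcripts in the non-targeting libraries, against 65.2% and 65.6% in the knockdown. SOCS3 over CISH was 0.436 and 0.514, then 0.402 and 0.373, also without overlap. SOCS3 over SOCS1 was 1.21 and 1.66, then 1.02 and 1.61, and its groups overlapped.

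**Figure D3:**
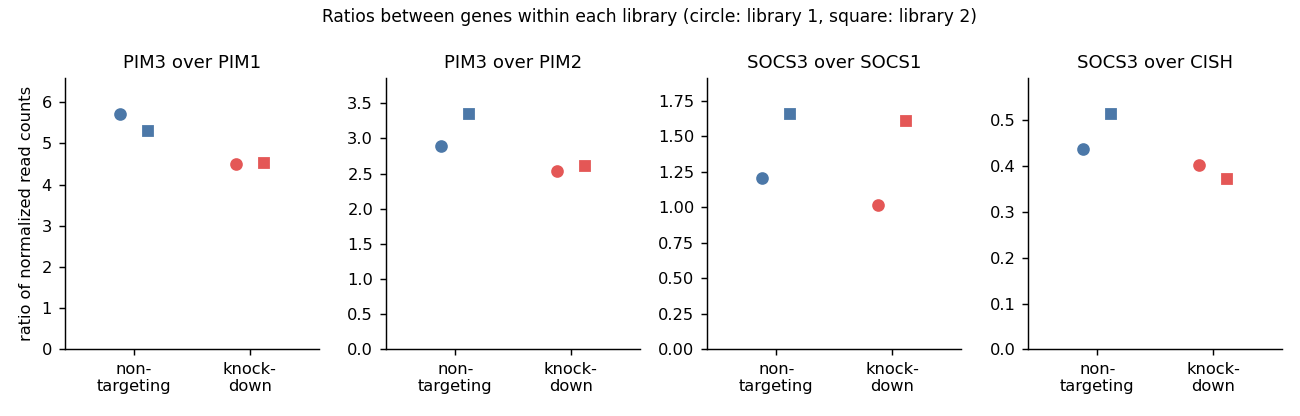
Ratio of normalized read counts (vertical axes, from 0) for 4 pairs of genes in each non-targeting (blue) and knockdown (red) library. PIM3 over PIM1 falls from 5.30 or more to 4.52 or less, while SOCS3 over SOCS1 overlaps between the groups.

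The rest of the pathway was followed with 7 lists by role, holding 110 genes outside the 10, of which 99 are in the table and 94 were tested. Of these, 19 fell and 1 rose (limma, adjusted p under 0.05), which is 20.2% lower, against 3.40% of all genes tested. Their median log2 fold change was -0.08, against -0.01 over all genes tested. The lists were drawn up with earlier results of these data known, so the counts are a description of them.

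Among the cytokines that start the signal, 8 of 17 were tested and 1 fell (12.5%, against 3.40% of all genes tested). LIF, a ligand of the gp130 family, went from 50.9 and 71.5 normalized reads to 34.5 and 27.4 (limma, log2 fold change -0.95 ± 0.26 SE, adjusted p = 0.0363). Low counts leave its size uncertain. The type I interferon IFNB1 stood at 21.1 and 30.1 against 4.80 and 14.8, with no call (limma, -1.45 ± 0.45 SE, adjusted p = 0.0704), and the lymphoid growth factor IL7 at 0.37 (adjusted p = 0.394). Interleukin-6, GM-CSF (CSF2) and interleukin-3 are not analysed here.

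Of 21 tested receptor chains 4 fell, which is 19.0%, against 3.40% of all genes tested. IL10RA, the ligand-binding chain for interleukin-10, went from 1789 and 1772 to 1220 and 1347 (limma, log2 fold change -0.47 ± 0.07 SE, adjusted p = 0.000143). IL6ST, which encodes gp130, the shared signalling chain that SOCS3 docks on, went from 2456 and 2602 to 2085 and 2191 (-0.24, adjusted p = 0.0224). IL6R, the interleukin-6 binding chain, fell by 0.17 on the log2 scale (adjusted p = 0.0381) and IL15RA by 0.49 (adjusted p = 0.00743). Both knockdown values were below both non-targeting values in 9 of the 21 tested chains, these 4 among them, and in 25.1% of all genes tested. In 2 of the 21 both were above, which was so in 4197 of all 19398 genes tested.

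Among the other JAKs and STATs, STAT2, a factor of type I interferon signalling that is itself interferon-stimulated, was read at 8558 and 8972 against 6427 and 7641, and fell by 0.32 on the log2 scale (limma, adjusted p = 0.00325). STAT6, which answers interleukin-4, stood at -0.15 (adjusted p = 0.114). Of 17 other inhibitors 2 fell (11.8%, against 3.40% of all genes tested). PTPN6, the phosphatase SHP-1 that removes phosphate from JAKs and receptors, went from 9153 and 8914 to 6552 and 7144 (limma, log2 fold change -0.40 ± 0.05 SE, adjusted p = 6.32e-05). USP18, an interferon-induced brake on the interferon receptor, fell by 0.53 (adjusted p = 6.49e-05). The adaptor SH2B3, which restrains JAK2, stood at -0.20 (adjusted p = 0.0573).

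Among other genes known as targets of STAT3 or STAT5, 8 of 20 tested were called lower and 1 higher. Over all genes tested the shares were 3.40% and 0.851%. The log2 fold change was negative in 16 of the 20 and in 52.5% of all genes tested. BCL3, an IkB family member, fell by 0.78 on the log2 scale, from 399 and 333 to 246 and 181 normalized reads (limma, adjusted p = 0.00104). The AP-1 subunits FOS and JUNB fell by 0.50 and 0.44, the adhesion molecule ICAM1 by 0.50 and the growth factor VEGFA by 0.37. FCGR1A, an Fc receptor with close paralogs whose reads could be shared, fell by 0.37, the myeloid factor CEBPB by 0.27 and the cyclin CCND3 by 0.25. The cyclin CCND2 was the one that rose, from 6232 and 6656 to 7862 and 7799 (limma, log2 fold change 0.28 ± 0.05 SE, adjusted p = 0.00193). Several of these genes are also targets of other pathways.

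Of 10 tested PIM substrates CDKN1A, the cell cycle inhibitor p21, fell by 0.47 (limma, adjusted p = 0.000142). The receptor CXCR4 stood at -0.13 (adjusted p = 0.214) and the pro-apoptotic protein BAD at -0.18 (adjusted p = 0.300). Of 10 BCL6 corepressors and targets CCL2, a monocyte chemoattractant that BCL6 represses in macrophages, fell by 0.72 (limma, adjusted p = 0.00111). The factor IRF4 stood at -0.60 (adjusted p = 0.305).

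Some of these calls rested on single libraries. Without non-targeting library 1 those of IL15RA (adjusted p = 0.0574), IL6ST (0.0583), IL6R (0.411), CCND2 (0.0964), CCND3 (0.205), ICAM1 (0.126) and CEBPB (0.519) ended. Without non-targeting library 2 those of LIF (0.357), IL6ST (0.257), IL6R (0.247) and ICAM1 (0.142) ended. Without knockdown library 1 those of IL6ST (0.0596) and ICAM1 (0.0943) ended, and FOS and STAT2 stood at -0.32 and -0.20. SH2B3 (-0.22, adjusted p = 0.0191) and BAD (-0.33, 0.0108) were then called lower, while IFNB1 stood at -0.73 (0.396). Without knockdown library 2 those of LIF (0.0853) and CEBPB (-0.15, adjusted p = 0.265) ended, and STAT6 (-0.18, 0.0296) and IFNB1 (-2.18, 0.000674) were called lower, while BAD stood at -0.026 (0.926). IFNB1 was also called with the same median in every library (adjusted p = 0.0261) and by robust empirical Bayes (0.0357), and SH2B3 by the latter (0.0306). IL10RA, STAT2, PTPN6, USP18, FOS, JUNB, BCL3, FCGR1A, VEGFA, CDKN1A and CCL2 were called with each library left out. Scaling to the same total ended the calls of LIF, IL6ST, IL6R, ICAM1 and CEBPB, quantile normalization those of the same genes other than LIF, and the same median that of IL6R. DESeq2 did not call IL15RA, IL6ST, FOS, ICAM1 and CEBPB, and edgeR did not call LIF and CEBPB. Robust empirical Bayes ended the calls of FOS and CEBPB, as a minimum mean of 50 did for CEBPB. LIF had no adjusted p by DESeq2 and was not tested at a minimum mean of 50.

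**Figure D4:**
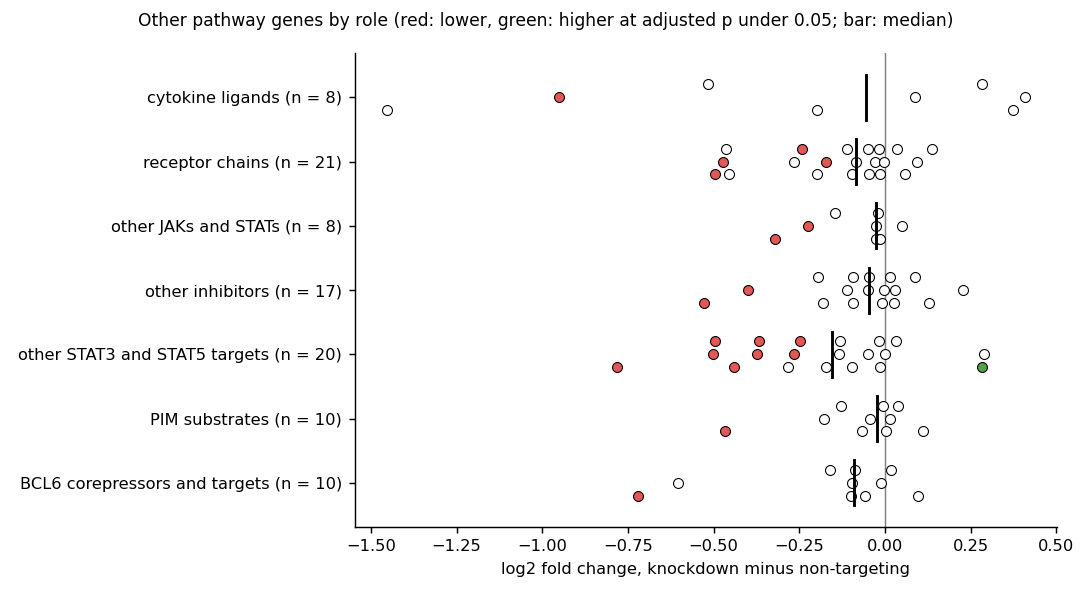
Log2 fold change (horizontal axis) of each tested pathway gene outside the 10, by role (rows), with a bar at the median of each list; red points were called lower, green higher and open points neither. By number, most called points lie among STAT3 and STAT5 targets (8 lower and 1 higher of 20) and receptor chains (4 lower of 21). The shorter list of other JAKs and STATs had 2 lower of 8, a larger share than among receptor chains. Over all genes tested 3.40% were called lower and 0.851% higher.

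The genes whose profile over the 4 libraries lay nearest to that of PIM3, by Euclidean distance of mean-centred log2 values among 7767 genes of comparable level, were NRROS, PLD3 and NME3, at distances of 0.012, 0.016 and 0.026. NRROS, a membrane protein of myeloid cells that binds latent TGF-beta, stood at 4374 and 4164 against 3572 and 3280. For SOCS3 they were BTG2, CAMK2B and the pseudogene DUSP8P5 among 7188 genes, at distances of 0.040, 0.041 and 0.042. BTG2, an antiproliferative gene induced by p53 and by growth factors, stood at 1172 and 1184 against 893 and 887. With 4 libraries in 2 groups many genes share such a shape, and the distances describe these libraries only.

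**Figure D5:**
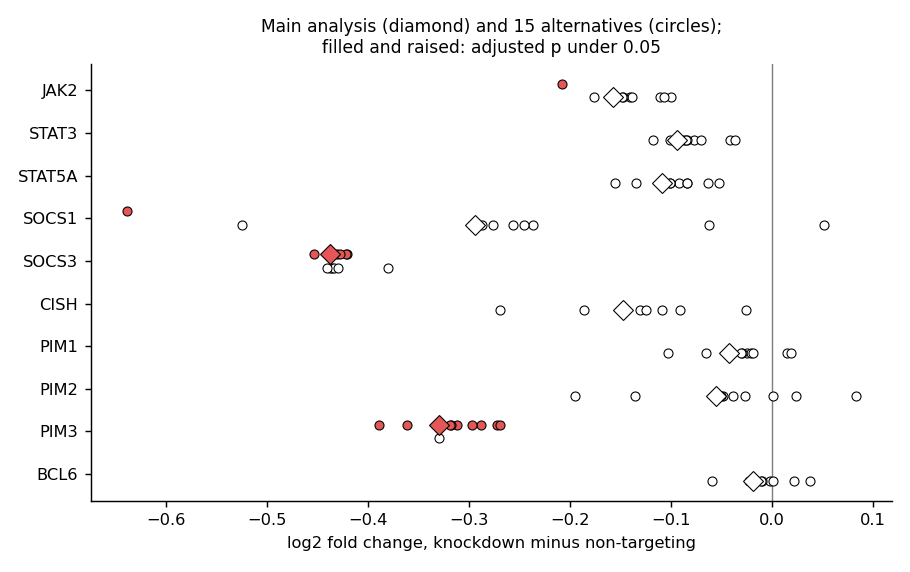
Log2 fold change (horizontal axis) of each of the 10 genes in the main analysis (diamond) and in 15 alternatives (circles); filled, raised points have an adjusted p under 0.05. PIM3 keeps its call in 14 alternatives and SOCS3 in 9, while SOCS1 ranges from -0.64 to 0.05.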

How the data were processed

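RNA was measured in 4 THP-1 libraries, 2 per group; kits were Qiagen RNeasy Plus Mini and NEBNext Ultra II, per the labels' protocols. STAR 2.5.1b, DESeq2 (no version) and GRCh38 are named, with no role, per the submitters' processing notes; annotation, counting tool and strand setting: not given in the sources used here. What was deposited is a normalized signal: the authors divided gene read counts by a size factor for each library. Dividing by its step returned whole reads for 100% of values (tolerance 0.01 read). Each gene has at least 2 reads in knockdown library 1, so genes lost there are not analysed here. Knockdown libraries are numbered in column order.

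The 19398 genes averaging 10 or more were tested by limma 3.58.1 (R 4.3.3, mean-variance trend) on log2(value + 1), p-values were adjusted after Benjamini and Hochberg and the threshold was 0.05; fold changes on this scale understate those of low genes. Symbols matched 26579 identifiers, positions and exons (GENCODE 29) 26077. Alternatives were other filters, pseudocounts, scalings and limma settings, each library left out (its lone partner then borrows the spread of the other group), and 2 count models on recovered reads, DESeq2 1.42.0 and edgeR 4.0.16 (quasi-likelihood). The genes and lists were chosen with earlier results of these data known. Named were the 10 genes, the target, the marker genes LYZ, CD14, CD3D and CD3E, every called gene of a list (with fewer than 3, those of smallest p up to 3), and the 3 nearest profiles of each called gene among genes outside all lists with a mean within 5-fold; some genes this rule takes are not reported here. Of the cytokines without a value, 3 were picked for mention. Counting errors assume Poisson reads and cover counting only.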

Additional observations from a re-analysis of the deposited data

How the results depend on the processing

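No paired analysis was possible because the column names of the groups share only 1 replicate number. Against 660 lower and 165 higher genes over the table, the counts were 326 lower after quantile normalization, 293 lower with the same total in every library, 291 higher with the same median, 0 and 0 with no mean-variance trend (2337 at an unadjusted p under 0.05), and 379 and 66 by DESeq2, where edgeR gave 556 and 159. Lower genes made up 80.0% of calls, against 69.1% with the same median, 55.5% with the same total, and 70.1% after quantile normalization; the same total also moved the median of all genes to 0.047. With 1 library left out, 334 to 960 genes were lower and 87 to 309 higher. Of the 10 genes, 1 was lower by DESeq2, with the same total and after quantile normalization, 0 with no trend (2 at an unadjusted p under 0.05), and 1 to 3 with a library left out. Of the other pathway genes, 19 lower and 1 higher became 0 and 0 with no trend, 2 were higher with the same median, and 12 to 25 were lower and 1 to 2 higher with a library left out. Sign changes, none of them called, were found for PIM1 (0.015), PIM2 (0.0014) and BCL6 (0.038) with the same total and for BCL6 (0.0010) after quantile normalization. With 1 library left out, log2 fold changes ranged from -0.64 to 0.051 for SOCS1, -0.10 to 0.019 for PIM1, -0.19 to 0.083 for PIM2 and -0.060 to 0.022 for BCL6. The cause was not tested. SOCS1 and SOCS3 rest on at most 315 reads in a library, which limits their precision.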
